A study of Mus musculus with 4 samples.

Results

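The enzymes and transporters of glycolysis and a group of genes known to be induced by low oxygen were followed through the cells of infarcted and uninjured mouse hearts. The set holds 35 genes out of 32287 features, was given by name, and every one of its genes was read at least once. It was chosen with earlier results of these data known, so its counts against all genes are descriptive. It comprises 4 transporters, 3 hexokinases, 7 genes between glucose 6-phosphate and the trioses, 7 between the trioses and lactate, 3 genes of pyruvate, glycogen and nucleotide handling, 4 of oxygen sensing and 7 other hypoxia-induced genes. Flow-sorted live cells with a nucleus from digested hearts, labelled as interstitial cells, were profiled with droplet libraries read at the 3′ end of transcripts, 1 library for each of 4 groups. The groups were deletion-labelled hearts 3 days after myocardial infarction, control hearts 3 days after infarction, deletion-labelled hearts without infarction and control hearts without infarction.

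Hearts of all 4 groups came from mice given tamoxifen that carry Tcf21-MerCreMer, a tamoxifen-dependent Cre recombinase expressed from the gene of the transcription factor Tcf21, which in the adult heart marks fibroblasts. The control genotype is Tcf21-MerCreMer and the deletion-labelled genotype is Tcf21-MerCreMer:flox. Neither the floxed stretch, nor the age of the animals, nor the number of animals in a library is stated in the sources used here. With 1 library per group there is no spread between animals, so no test was run and every interval in the text covers counting error only. In fibroblasts Tcf21 itself stood at 33.3 CPM in the deletion-labelled and 23.1 CPM in the control infarction library, and at 146.7 and 95.7 CPM in the deletion-labelled and control libraries without infarction. It was thus higher, not lower, in both libraries of the deletion-labelled genotype. Reads from the 3′ end may lie outside a deleted part and do not check it, so the term deletion-labelled is kept throughout.

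The libraries held 55710468 to 129704045 unique molecular identifiers (UMIs, each 1 captured RNA molecule), and 8289 to 10142 cells per library were kept. Any pair of libraries shared 19 to 41 cell barcodes out of at least 9149. Levels are counts per 1000000 UMIs of a cell class in a library (CPM). Because only the 3′ end of each RNA is counted, they need no correction for gene length. Whether different genes were captured equally well was not tested, and sums and rankings across genes carry that limit. Cell classes were named from marker genes, and no cluster was named as heart muscle cells. Cells left unnamed made 17.0% and 21.1% of the deletion-labelled and control infarction libraries. Without infarction they made 28.7% and 20.8%. Fibroblasts, the main class here, numbered 1416 and 903 in the deletion-labelled and control infarction libraries and 1971 and 1876 in the deletion-labelled and control libraries without infarction.

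Glycolysis splits glucose into pyruvate and yields ATP without oxygen, provided that pyruvate is reduced to lactate and the lactate leaves the cell. When oxygen falls, prolyl hydroxylases stop marking the subunit HIF1α for destruction, and the hypoxia-inducible factor HIF then binds short response elements near glycolytic genes and other targets. In an infarct the loss of blood flow removes oxygen and nutrients together, and fibroblasts, vessel cells and incoming leukocytes all meet that environment. Several steps can be run by alternative isozymes, which differ in kinetics and in regulation.

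The HIF response element has the core ACGTG or GCGTG, and the bases just upstream of the RefSeq start (build GRCm38.p6) are shown for 7 genes on which the results turn. Capitals mark each match to a core on either strand, so that CACGT and CACGC are the same cores read from the other strand and CACGTG holds 2 overlapping matches. The first 4 genes rose in infarct fibroblasts, Mif rose as well, and Hk1 and Adm fell.
Slc16a3 (chr11:120948817-120949066, plus strand): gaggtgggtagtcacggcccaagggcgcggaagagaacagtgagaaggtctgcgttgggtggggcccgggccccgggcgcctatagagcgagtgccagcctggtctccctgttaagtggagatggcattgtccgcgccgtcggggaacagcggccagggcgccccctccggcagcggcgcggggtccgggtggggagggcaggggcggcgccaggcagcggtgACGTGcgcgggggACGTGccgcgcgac
Ldha (chr7:46845554-46845803, plus strand): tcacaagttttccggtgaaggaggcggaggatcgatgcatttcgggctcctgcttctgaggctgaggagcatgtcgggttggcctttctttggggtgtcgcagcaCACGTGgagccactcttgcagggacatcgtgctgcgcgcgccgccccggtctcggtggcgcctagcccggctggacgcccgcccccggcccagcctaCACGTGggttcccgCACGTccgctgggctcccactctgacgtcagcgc
Pgk1 (chrX:106186850-106187099, plus strand): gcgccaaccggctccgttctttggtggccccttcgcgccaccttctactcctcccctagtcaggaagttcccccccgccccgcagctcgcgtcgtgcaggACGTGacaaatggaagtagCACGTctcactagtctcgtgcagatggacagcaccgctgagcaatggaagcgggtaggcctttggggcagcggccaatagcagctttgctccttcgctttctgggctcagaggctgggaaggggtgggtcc
Hk2 (chr6:82774455-82774704, minus strand): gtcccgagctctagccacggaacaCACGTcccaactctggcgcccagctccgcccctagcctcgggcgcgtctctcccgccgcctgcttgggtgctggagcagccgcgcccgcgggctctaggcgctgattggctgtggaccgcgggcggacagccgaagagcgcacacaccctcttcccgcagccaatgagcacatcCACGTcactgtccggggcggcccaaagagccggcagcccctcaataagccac
Mif (chr10:75860278-75860527, minus strand): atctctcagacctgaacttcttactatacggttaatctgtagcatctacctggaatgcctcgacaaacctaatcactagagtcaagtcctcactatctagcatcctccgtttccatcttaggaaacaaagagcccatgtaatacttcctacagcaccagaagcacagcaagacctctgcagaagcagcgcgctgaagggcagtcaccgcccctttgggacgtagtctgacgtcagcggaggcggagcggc
Hk1 (chr10:62379909-62380158, minus strand): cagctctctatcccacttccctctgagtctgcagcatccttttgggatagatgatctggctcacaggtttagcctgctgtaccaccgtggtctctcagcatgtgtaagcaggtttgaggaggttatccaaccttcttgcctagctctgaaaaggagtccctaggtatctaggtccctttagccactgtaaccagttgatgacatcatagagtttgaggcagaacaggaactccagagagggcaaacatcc
Adm (chr7:110627407-110627656, plus strand): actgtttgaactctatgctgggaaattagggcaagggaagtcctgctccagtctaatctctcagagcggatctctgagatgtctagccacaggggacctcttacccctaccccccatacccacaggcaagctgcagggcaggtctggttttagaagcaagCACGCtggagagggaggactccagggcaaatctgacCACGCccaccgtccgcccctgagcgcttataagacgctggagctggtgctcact

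The Ldha stretch holds 5 ACGTG matches, those of Slc16a3, Pgk1 and Hk2 hold 2 each, and that of Adm holds 2 GCGTG matches. The stretches of Mif and Hk1 hold neither core in these 250 bases, although Mif has 1 ACGTG match once the window takes in the 50 bases after the start, and Hk1 has none there. Genes not shown did not all follow the same split. Tpi1, Pkm, Gpi1 and Gys1 rose in fibroblasts of both genotypes with neither core in their stretches. Pfkm, with 2 ACGTG matches, Pfkp, with 3 GCGTG matches, and Kdm3a, with 1 GCGTG match, fell in both. RefSeq promoters were found for 32 of the 35 genes, all except Slc2a3, Bnip3l and Ndrg1. Over windows of 300 bases (250 before and 50 after the start) 25 of the 32 had either core, or 78.1%, against 43.8% of the windows of 27025 genes. The cores are rich in G and C, and so are many of these promoters. Among windows with at least 60% G and C the shares were 17 of 19 genes of the set, or 89.5%, and 69.7% of all such genes. A match of letters is a description of the sequence and not of binding.

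The first comparison set fibroblasts 3 days after infarction against fibroblasts of the same genotype without it. After infarction the lactate exporter Slc16a3, the whole main line of enzymes below the trioses and the cytokine Mif stood several-fold higher in both genotypes, while Hk1, Pfkp, Pfkm, Eno2, Kdm3a, Adm and Mxi1 stood lower in both. A gene is called higher or lower where its CPM differed by at least 1.5-fold with at least 30 UMIs in 1 of the 2 sums, and rose and fell are used only for such genes. In the deletion-labelled libraries 20 genes rose and 8 fell of 34 counted, where 18.5% of all 13268 genes counted were higher and 31.9% lower. In the control libraries 21 rose and 8 fell of 34, where 23.9% of 12939 genes were higher and 40.0% lower. The median log2 ratio of the set was 0.91 in the deletion-labelled and 1.16 in the control libraries, against -0.21 and -0.29 over all genes. Scaling by the median of ratios in place of total UMIs moved those medians over all genes to 0.01 and 0.03. With that scaling 22 genes rose and 3 fell in the deletion-labelled and 24 rose and 6 fell in the control libraries, and no called gene of the set changed sign in fibroblasts. Hk3 had too few UMIs to be counted in fibroblasts.

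Summed over the set, fibroblasts held 6412 CPM after infarction and 2352 CPM without it in the deletion-labelled libraries. In the control libraries the sum was 7731 CPM after infarction and 2190 CPM without it. Most of that sum came from the steps between the trioses and lactate, which made 3968 and 1103 CPM with and without infarction in the deletion-labelled and 4896 and 953 CPM in the control libraries. More UMIs were also read per cell: median UMIs per fibroblast were 19266 with and 13392 without infarction in the deletion-labelled libraries and 31259 and 10516.5 in the control libraries.

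Of the transporters of sugar and lactate 3 of 4 rose, and Slc16a3 had the highest log2 ratio of the genes counted in the set in both genotypes. Slc16a3 (chr11:120948480-120960868 on mm10), which encodes the lactate exporter MCT4, stood at 89.7 CPM after infarction and 5.14 CPM without it in the deletion-labelled libraries, and at 128 and 4.94 CPM in the control libraries. Its level was thus 17.4-fold higher in the deletion-labelled pair (log2 ratio 4.12, 95% interval 3.88 to 4.38) and 25.8-fold higher in the control pair (4.69, 4.40 to 4.99). Slc2a1 (chr4:119108711-119137983), the glucose transporter GLUT1, stood at 32.6 and 5.47 CPM in the deletion-labelled and 34.97 and 5.98 CPM in the control libraries. It rose 5.97-fold in the deletion-labelled and 5.85-fold in the control pair, with both infarction libraries close together. Slc16a1, the transporter MCT1 that moves lactate in either direction, rose with log2 ratios of 1.16 (0.91 to 1.40) in the deletion-labelled and 1.30 (1.03 to 1.58) in the control pair. Slc2a3, the transporter GLUT3 of neurons and leukocytes, stood at 3.01 to 4.44 CPM in all 4 libraries and was marked as possible free RNA, since its level in fibroblasts was under a ratio of 0.1 to that in neutrophils.

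Hexokinases trap glucose by phosphorylation, and the 2 that fibroblasts express moved in opposite directions. Hk2 (chr6:82725025-82774454), the isozyme known for its induction by hypoxia and insulin, stood at 94.2 CPM with and 37.2 CPM without infarction in the deletion-labelled libraries and at 102 and 33.7 CPM in the control libraries. Its log2 ratios were 1.34 (1.24 to 1.44) in the deletion-labelled and 1.60 (1.48 to 1.72) in the control pair. Hk1 (chr10:62268855-62379908), the isozyme that most tissues express steadily, stood at 32.6 and 54.9 CPM in the deletion-labelled and at 31.1 and 63.2 CPM in the control libraries. On the log2 scale it fell by 0.75 (interval of the ratio -0.86 to -0.64) in the deletion-labelled and by 1.03 (-1.15 to -0.90) in the control pair. Counted per cell, Hk1 had 0.763 UMIs with and 0.758 without infarction in the deletion-labelled libraries and 1.003 and 0.682 in the control libraries, so its share of the UMIs was lower while its UMIs per cell were not.

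Between glucose 6-phosphate and the trioses, 4 of 7 genes rose and 2 fell in the deletion-labelled libraries, and 3 rose and 2 fell in the control libraries. Pfkl (chr10:77986947-78010083), the liver-type phosphofructokinase, stood at 63.2 CPM with and 15.2 CPM without infarction in the deletion-labelled and at 82.7 and 14.2 CPM in the control libraries. The platelet-type subunit Pfkp (chr13:6579768-6648777) stood at 46.8 and 76.2 CPM in the deletion-labelled and at 43.6 and 97.3 CPM in the control libraries. Thus Pfkl rose with a log2 ratio of 2.06 in the deletion-labelled and 2.55 in the control pair, and Pfkp fell by 0.70 in the deletion-labelled and 1.16 in the control pair. The muscle-type subunit Pfkm fell by 0.95 in the deletion-labelled and 0.90 in the control pair on the log2 scale. Tpi1, which interconverts the trioses, rose with 1.88 in the deletion-labelled and 2.22 in the control pair, and Gpi1, which isomerises glucose 6-phosphate, with 0.79 in the deletion-labelled and 1.13 in the control pair. Pfkfb3, which makes the activator of phosphofructokinase, had log2 ratios of 0.85 (0.57 to 1.13) in the deletion-labelled pair and 0.46 (0.22 to 0.71) in the control pair, and the control value is short of 1.5-fold. Pfkfb4, its relative, stood at 4.26 to 4.70 CPM in all 4 libraries.

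Below the trioses 6 of 7 genes rose in both genotypes and 1 fell, with a median log2 ratio of 1.90 in the deletion-labelled and 2.36 in the control libraries. The enolase Eno1 (chr4:150236721-150248879) stood at 293 CPM with and 45.3 CPM without infarction in the deletion-labelled libraries and at 459 and 45.9 CPM in the control libraries. It rose 6.46-fold in the deletion-labelled pair (log2 ratio 2.69, 2.61 to 2.78) and 9.99-fold in the control pair (3.32, 3.22 to 3.42). Reads of Eno1 can be shared with its near-identical copy Eno1b, which stood at 1.21 to 4.66 CPM. Phosphoglycerate kinase Pgk1 stood at 418 and 75.8 CPM in the deletion-labelled and at 530 and 74.1 CPM in the control libraries, with log2 ratios of 2.46 in the deletion-labelled and 2.84 in the control pair. Lactate dehydrogenase A, encoded by Ldha (chr7:46841475-46855627), stood at 736 and 189 CPM in the deletion-labelled and at 943 and 166 CPM in the control libraries, with log2 ratios of 1.96 in the deletion-labelled and 2.51 in the control pair. Gapdh, often taken as a constant reference gene, was the most abundant of the set and was not constant: it stood at 1380 and 457 CPM in the deletion-labelled and at 1579 and 366 CPM in the control libraries. Pgam1 and Pkm, a mutase and the pyruvate kinase, rose with log2 ratios of 1.90 and 1.71 in the deletion-labelled and 2.36 and 2.13 in the control pair. Only Eno2, the enolase of neurons, fell in this group, to 1.93 CPM with against 4.26 CPM without infarction in the deletion-labelled and 2.43 against 3.90 CPM in the control libraries.

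**Figure D1:**
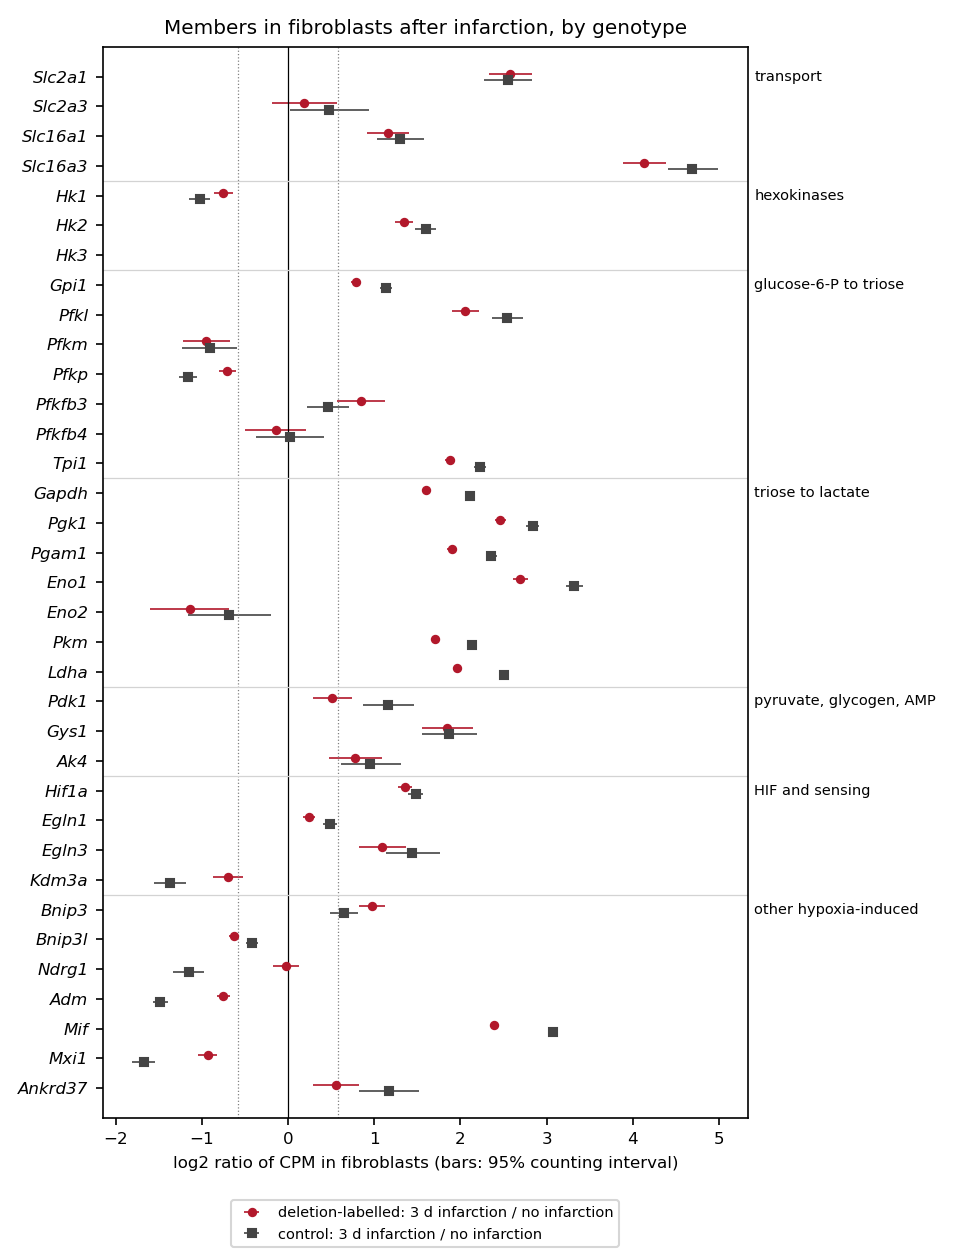
Log2 ratio of CPM in fibroblasts with over without infarction for each gene of the set, in deletion-labelled (circles) and control (squares) libraries, with 95% counting intervals as bars and dotted lines at 1.5-fold. Slc16a3 lies farthest to the right in both genotypes at 4.12 and 4.69, the genes from triose to lactate other than Eno2 lie between 1.60 and 3.32, and Hk1, Pfkm, Pfkp, Eno2, Kdm3a, Adm and Mxi1 lie left of the lower dotted line in both.

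At the branch points, glycogen synthase Gys1 rose with log2 ratios of 1.84 (1.55 to 2.15) in the deletion-labelled and 1.87 (1.56 to 2.19) in the control pair. Pdk1, a pyruvate dehydrogenase kinase, had log2 ratios of 0.51 (0.29 to 0.74) in the deletion-labelled pair and 1.16 (0.87 to 1.46) in the control pair. It was thus called in the control pair alone, and the difference between the pairs was not tested. Without infarction Pdk1 stood at 9.62 CPM in the deletion-labelled and 6.37 CPM in the control library, with 13.7 CPM in the deletion-labelled and 14.3 CPM in the control library after it. Ak4, a mitochondrial adenylate kinase, rose with log2 ratios of 0.78 in the deletion-labelled and 0.95 in the control pair.

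Of the oxygen-sensing genes, Hif1a, which encodes HIF1α and is known to be controlled mainly at the protein, stood at 161 CPM with and 63.0 CPM without infarction in the deletion-labelled and at 171 and 61.5 CPM in the control libraries. Its log2 ratios were 1.36 (1.28 to 1.44) in the deletion-labelled and 1.48 (1.39 to 1.57) in the control pair. Among the prolyl hydroxylases that mark HIF1α, the hypoxia-induced Egln3 rose with log2 ratios of 1.09 in the deletion-labelled and 1.44 in the control pair, while Egln1 had 0.24 in the deletion-labelled and 0.49 in the control pair, short of 1.5-fold. The histone demethylase gene Kdm3a, itself a known HIF target, fell by 0.70 in the deletion-labelled and 1.37 in the control pair on the log2 scale.

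The other hypoxia-induced genes did not move as a block: 2 of 7 rose and 3 fell in the deletion-labelled, and 3 rose and 3 fell in the control libraries. Mif (chr10:75859353-75860240), a cytokine gene, stood at 838 CPM with and 160 CPM without infarction in the deletion-labelled and at 1078 and 128 CPM in the control libraries, with log2 ratios of 2.39 in the deletion-labelled and 3.07 in the control pair. Adm (chr7:110627661-110629820), which encodes the vasodilator adrenomedullin, stood at 74.3 and 125 CPM in the deletion-labelled and at 57.3 and 160 CPM in the control libraries. Adm therefore fell, by 0.75 in the deletion-labelled and 1.48 in the control pair on the log2 scale, although it is among the best known targets of HIF. Mxi1, an antagonist of Myc, fell by 0.93 in the deletion-labelled and 1.67 in the control pair. Per cell, Adm had 1.74 UMIs with and 1.73 without infarction in the deletion-labelled libraries and 1.85 and 1.73 in the control libraries, and Mxi1 had 0.725 with and 0.818 without infarction in the deletion-labelled libraries and 0.735 and 0.784 in the control libraries. The mitophagy receptor Bnip3 rose with log2 ratios of 0.98 in the deletion-labelled and 0.65 in the control pair. Its relative Bnip3l stood at 135 and 208 CPM in the deletion-labelled pair, a fall of 0.62, and at 122 and 164 CPM in the control pair, which is short of 1.5-fold. Ankrd37 was called in the control pair alone, with log2 ratios of 0.56 in the deletion-labelled and 1.17 in the control pair, and the difference was not tested. Ndrg1, a stress-induced gene, had a log2 ratio of -0.03 in the deletion-labelled pair and fell by 1.15 in the control pair.

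Because isozyme shares within 1 set of counts do not depend on how the libraries are scaled, they give a second view of the same genes. These shares were added after the levels had been seen. Of hexokinase UMIs in fibroblasts, Hk2 made 74.1% (95% Clopper-Pearson interval 72.7 to 75.4) with and 40.3% (38.4 to 42.3) without infarction in the deletion-labelled libraries, and 76.2% (74.9 to 77.6) and 34.7% (32.6 to 36.8) in the control libraries. Hk1 was the main hexokinase without infarction and Hk2 after it. Of the phosphofructokinase subunits, Pfkl made 54.7% (53.1 to 56.3) with and 14.9% (13.6 to 16.3) without infarction in the deletion-labelled libraries, and 63.0% (61.4 to 64.5) and 11.7% (10.5 to 13.1) in the control libraries, and Pfkp made most of the rest. Of the MCT1 and MCT4 transcripts, Slc16a3 made 85.0% and 42.0% in the deletion-labelled and 88.1% and 41.3% in the control libraries. Ldhb, the heart-type lactate dehydrogenase outside the set, made 1.91% and 16.8% of Ldha and Ldhb together in the deletion-labelled and 1.35% and 16.2% in the control libraries. The intervals cover counting error in 1 library per group only, and the shares were not set against those of other gene pairs.

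The change of isozyme was not alike in other stromal and vessel cells. In endothelial cells Hk1 held 97.5% and 98.2% of hexokinase UMIs in the deletion-labelled and control infarction libraries, against 97.9% and 97.4% without infarction. There Slc16a3 nonetheless made 94.8% with and 37.7% without infarction in the deletion-labelled and 91.7% and 32.6% in the control libraries. In mural cells, the pericytes and smooth muscle around vessels, Hk2 made 23.4% (17.7 to 29.9) with and 6.29% (3.93 to 9.45) without infarction in the deletion-labelled libraries and 31.8% (23.9 to 40.6) and 4.12% (1.13 to 10.2) in the control libraries.

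**Figure D2:**
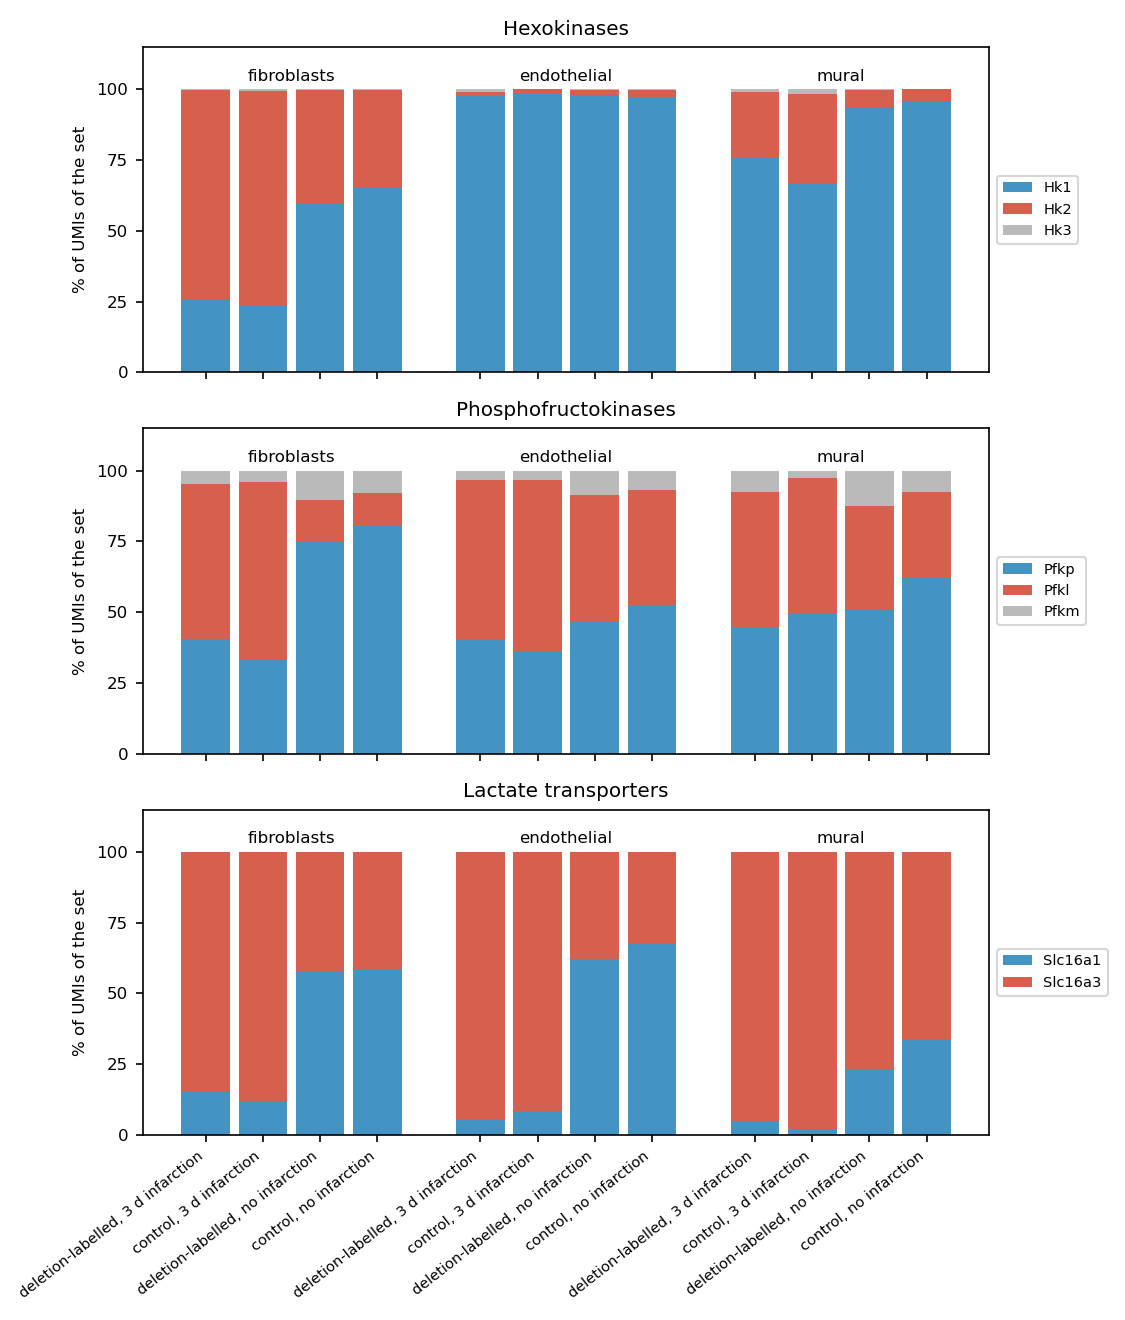
Share of UMIs (percent of the set) held by each hexokinase, phosphofructokinase subunit and lactate transporter in fibroblasts, endothelial cells and mural cells of the 4 libraries, as stacked bars. In fibroblasts Hk2 takes 74.1% and 76.2% after infarction against 40.3% and 34.7% without it, while Hk1 holds at least 97.4% in endothelial cells of every library.

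Fibroblasts with and without infarction lay largely in different clusters, so the levels above mix cell states. After infarction 931 of 1416 fibroblasts in the deletion-labelled and 884 of 903 in the control library lay in cluster 26, led by Cthrc1, Tnc, Timp1 and Lox. Without infarction most lay in cluster 0, led by Inmt and Smoc2, or cluster 1, led by Myoc and Pi16. Only the deletion-labelled library held enough cells of these resident clusters after infarction for a comparison within them, 128 in cluster 0 and 357 in cluster 1, against 4 and 15 in the control library.

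Within cluster 1 of the deletion-labelled libraries, 12 of 34 genes rose after infarction and 6 fell, where 4.12% of 11407 genes were higher and 15.4% lower. The median log2 ratio was 0.22, against -0.16 over all genes. Slc16a3 stood at 24.3 CPM with and 7.17 CPM without infarction there (log2 ratio 1.76, 1.35 to 2.18), Slc2a1 at 12.6 and 5.88 CPM, Eno1 at 97.7 and 48.4 CPM, and Ldha at 314 and 203 CPM. The rises were smaller than in all fibroblasts, and Hk2 again took a larger share of hexokinase UMIs, 68.1% (64.0 to 72.0) with and 47.7% (45.0 to 50.4) without infarction. Adm went the other way than in all fibroblasts, with 64.9 CPM with and 41.4 CPM without infarction (log2 ratio 0.65). Slc16a1, Egln3 and Bnip3 had negative log2 ratios in cluster 1, at -0.48, -0.77 and -0.17, although they rose in fibroblasts as a whole. In cluster 0, 3 genes rose and 4 fell of 34, where 5.86% of 11476 genes were higher and 18.9% lower. The 3 were Slc16a3 (8.97 against 3.36 CPM), Ndrg1 (26.9 against 12.5 CPM) and Eno1 (65.0 against 42.6 CPM).

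The infarction comparison in fibroblasts moved together with proliferation and with handling-sensitive genes. A list of 14 genes of the S and G2M phases summed to 758 CPM with and 120 CPM without infarction in the deletion-labelled and to 1127 and 86.7 CPM in the control libraries, and all 14 rose in both. A list of 15 dissociation and immediate-early genes summed to 7124 and 12437 CPM in the deletion-labelled and to 5583 and 10639 CPM in the control libraries, with 10 and 11 genes lower. The part of either in the levels of glycolytic genes was not tested.

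Endothelial cells, which line the vessels, gave 15 higher and 6 lower of 30 counted genes in the deletion-labelled pair, where 18.9% of 12052 genes were higher and 26.0% lower. In the control pair 16 were higher and 5 lower of 30, where 24.6% of 11524 genes were higher and 35.3% lower. One of the lower genes in each pair, Slc2a3, was marked as possible free RNA, and with doublets kept its log2 ratio was 0.69 in the deletion-labelled and 1.21 in the control pair. The count of lower genes in the control pair was 11 with at most 10% mitochondrial UMIs per cell and 3 with each library clustered alone. Slc16a3 stood at 46.8 CPM with and 2.32 CPM without infarction in the deletion-labelled and at 66.1 and 2.11 CPM in the control libraries, with log2 ratios of 4.33 (3.87 to 4.82) in the deletion-labelled and 4.97 (4.41 to 5.57) in the control pair. The prolyl hydroxylase Egln3 had log2 ratios of 3.47 in the deletion-labelled and 4.08 in the control pair, where fibroblasts had 1.09 and 1.44. It rose to 24.7 CPM with against 2.22 CPM without infarction in the deletion-labelled and 45.0 against 2.65 CPM in the control libraries. Its partner Egln1 fell on the log2 scale, by 0.68 in the deletion-labelled and 0.72 in the control pair. So did Kdm3a, by 0.99 in the deletion-labelled and 1.49 in the control pair, and Mxi1, by 1.15 in the deletion-labelled and 1.36 in the control pair. Pkm stood at 699 and 147 CPM in the deletion-labelled and at 890 and 130 CPM in the control libraries, and Pgk1 at 352 and 66.6 CPM in the deletion-labelled and at 422 and 60.5 CPM in the control libraries. Thus the lower part of the pathway rose here as well, with Ldha the least, at log2 ratios of 0.92 in the deletion-labelled and 1.59 in the control pair.

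Adm in endothelial cells stood at 64.0 CPM with and 23.8 CPM without infarction in the deletion-labelled and at 122 and 28.6 CPM in the control libraries. That rise depended on which cells were counted: with at most 10% mitochondrial UMIs per cell the log2 ratios were -0.90 in the deletion-labelled and -0.63 in the control pair, and within cluster 7, the largest endothelial cluster that both deletion-labelled libraries share, the ratio was -1.78. With a looser naming rule, added after seeing the data, the ratios were 0.36 in the deletion-labelled and 1.22 in the control pair. The naming rule used for the levels left cluster 4, which has endothelial markers, unnamed. That cluster held 1072 deletion-labelled and 530 control cells without infarction, with Adm at 139.7 and 199.6 CPM. Other endothelial values also depended on the cells counted. Within cluster 7 of the deletion-labelled libraries 12 of 26 genes were higher and 5 lower, where 11.9% of 9735 genes were higher and 23.8% lower. Pgk1 had a log2 ratio of 1.53 there and 2.40 in all endothelial cells, Pkm had 1.14 and 2.24, and Egln1 had -0.06 and -0.68. Infarction libraries held few cells named endothelial, 497 and 233 in the deletion-labelled and control libraries, against 4184 and 3912 without infarction. Of these, 244 and 197 lay in cluster 21, led by Apln and Plvap, which held 32 and 23 cells without infarction. Over all endothelial cells the 14 S and G2M genes were higher in both pairs, at a sum of 1194 CPM with and 233 CPM without infarction in the deletion-labelled and 1264 and 195 CPM in the control libraries. Neutrophil markers summed to 402 and 50.2 CPM in the deletion-labelled and to 174 and 28.0 CPM in the control libraries, and the part of either in the values was not tested. Ndrg1 was at its highest in endothelial cells of all 4 libraries, at 179 CPM in the deletion-labelled and 191 CPM in the control library with infarction and at 224 CPM in the deletion-labelled and 208 CPM in the control library without it.

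Mural cells gave 16 higher and 2 lower of 30 counted genes in the deletion-labelled pair, where 16.0% of 9288 genes were higher and 28.3% lower. The control pair, with 89 and 193 cells, gave 17 higher and 2 lower of 23, where 27.3% of 6193 genes were higher and 32.0% lower. Slc16a3 stood at 86.6 CPM with and 7.38 CPM without infarction in the deletion-labelled and at 147 and 5.14 CPM in the control libraries. Bnip3 rose to 21.4 CPM with against 4.49 CPM without infarction in the deletion-labelled and to 26.4 against 6.43 CPM in the control libraries, log2 ratios of 2.25 and 2.04, where fibroblasts had 0.98 and 0.65. Pfkfb3 rose to 28.5 against 5.13 CPM in the deletion-labelled and to 24.8 against 11.6 CPM in the control libraries. The 193 control cells without infarction had a mean of 4029 UMIs each, so their low CPM values rest on few UMIs. Whether these ratios differ from those of fibroblasts was not tested. Mxi1 fell in both pairs, as in fibroblasts and endothelial cells, by 0.64 in the deletion-labelled and 1.44 in the control pair on the log2 scale. Markers of mononuclear phagocytes summed to 209 CPM with and 191 CPM without infarction in the deletion-labelled and to 1241 and 204 CPM in the control mural cells, and those of red cells to 28.5 and 83.1 CPM in the deletion-labelled and to 4900 and 21.9 CPM in the control mural cells. Their part in the values was not tested.

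Few cells of uninjured hearts were named as mononuclear phagocytes or neutrophils, and these classes were compared in the deletion-labelled libraries alone. The Lyve1 and Cd163 cluster 9, with 341 deletion-labelled and 529 control cells without infarction, was outside the phagocyte class. Its mononuclear phagocyte markers summed to 28892 and 26003 CPM, against 19512 CPM in the 61 named cells of the deletion-labelled library. The phagocyte values without infarction therefore leave out most cells with these markers. In both classes the cells with and without infarction lay largely in different clusters. Of the phagocytes, 945 of 1391 after infarction lay in cluster 17, led by Ms4a4c and Ly6c2, which held 12 of the 61 without it, and 40 of those 61 lay in cluster 16. Of the neutrophils, 2478 of 3397 after infarction lay in cluster 25, which held 5 of the 107 without it, and 102 of those 107 lay in cluster 12. Mononuclear phagocytes, monocytes and macrophages with 1391 cells after infarction and 61 without, had 22 higher and 3 lower of 33 genes, where 20% of 10540 genes were higher and 31.7% lower. Slc2a1 stood at 93.4 CPM with and 7.39 CPM without infarction (log2 ratio 3.66, 2.30 to 5.54), Hif1a at 374 and 73.9 CPM (2.34, 1.89 to 2.82), and Bnip3 at 75.3 and 12.9 CPM (2.54, 1.495 to 3.86). Bnip3l and Pfkfb4 fell there, to 121 against 224 CPM and to 20.9 against 49.9 CPM. Endothelial markers summed to 83.0 CPM with and 988 CPM without infarction in these cells, with 7 of 7 counted lower, B cell markers to 45.8 and 205 CPM, with 4 of 4 lower, and the platelet list to 2340 and 170 CPM, with 2 of 2 higher. Neutrophil markers summed to 657 and 170 CPM, with 6 of 8 higher, and the part of these in the values was not tested. Neutrophils, with 3397 and 107 cells, had 16 higher and 3 lower of 30, where 43.5% of 8941 genes were higher and 11.6% lower. Mif stood at 563 with and 20.7 CPM without infarction in neutrophils, and Ankrd37 at 84.5 and 4.60 CPM. Slc2a3, the leukocyte glucose transporter, fell there to 91.4 CPM against 290 CPM, and Hk3, the hexokinase of myeloid cells, to 40.6 against 87.3 CPM. Within cluster 12 Mif stood at 430 and 21.5 CPM and Hk3 at 52.8 and 83.5 CPM, while Slc2a3 stood at 226 and 289 CPM, short of 1.5-fold. Endothelial markers summed to 2715 CPM with and 1110 CPM without infarction in neutrophils, with 7 of 10 higher, and their part was not tested.

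**Figure D3:**
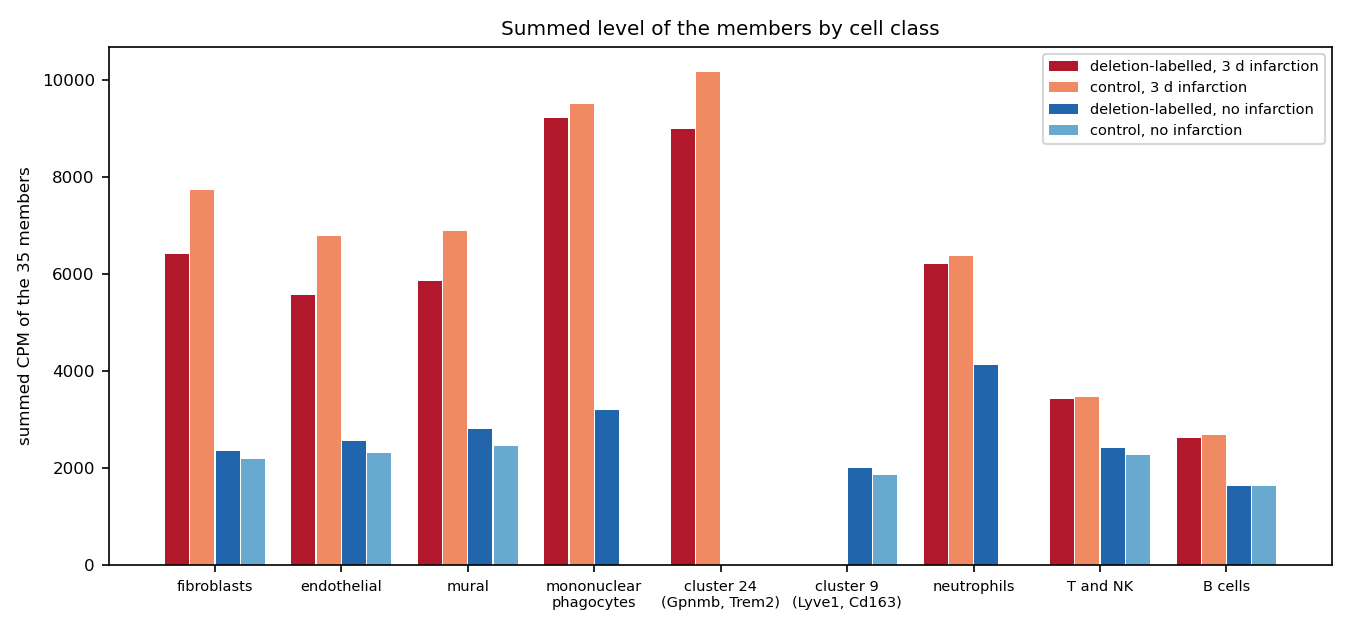
Summed CPM of the 35 genes in each cell class or cluster, with the infarction libraries (deletion-labelled, then control) left of the libraries without infarction, each bar from 1 library and drawn only where at least 50 cells were present. Mononuclear phagocytes and cluster 24 reach 8983 to 10173 CPM after infarction, fibroblasts reach 6412 and 7731 CPM, and no class without infarction exceeds 4119 CPM.

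After infarction the summed level ran, in the deletion-labelled and control libraries, at 9219 and 9506 CPM in mononuclear phagocytes and at 8983 and 10173 CPM in cluster 24, cells led by Gpnmb, Spp1 and Trem2 that the naming rule left unnamed. Fibroblasts at 6412 and 7731 CPM and the unnamed cluster 22 at 6520 and 7012 CPM followed. Other single clusters also had high sums, with cluster 27 above all of these at 10792 and 10318 CPM and cluster 14 at 6967 and 7993 CPM. Neutrophils at 6202 and 6373 CPM, mural cells at 5859 and 6892 CPM and endothelial cells at 5570 and 6789 CPM had sums close to each other, in an order that differed between the libraries. T and NK cells at 3433 and 3474 CPM and B cells at 2610 and 2677 CPM were lowest in both, below dendritic cells at 3766 and 5371 CPM. Without infarction neutrophils of the deletion-labelled library were highest at 4119 CPM, and the Lyve1 and Cd163 cluster 9 stood at 1998 and 1855 CPM.

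Single genes had their own leading cells. Mif was highest in fibroblasts in both infarction libraries, with cluster 24 next at 817 and 911 CPM, and Hk2 was likewise highest in fibroblasts and lowest in endothelial cells, at 1.54 and 1.99 CPM. Slc16a3 was highest in neutrophils, at 408 CPM in the deletion-labelled and 343 CPM in the control infarction library, followed by mononuclear phagocytes at 220 and 211 CPM. Pfkfb4 was highest in neutrophils too, at 76.9 and 67.5 CPM. Hk1 led in endothelial cells at 91.5 and 110 CPM. Hk3 made 35.9% and 35.1% of hexokinase UMIs in cluster 24 and 27.6% and 29.6% in neutrophils, against 0.261% and 0.513% in fibroblasts. After thinning to 2000 UMIs per cell, 8.27% of neutrophils and 0.0719% of fibroblasts in the deletion-labelled infarction library had an Hk3 UMI, against 0 of 426 endothelial cells (0 to 0.862%), so that the fibroblast share cannot be told from free RNA. Unthinned, the shares were 9.18% of neutrophils, 0.636% of fibroblasts and 0.604% of endothelial cells, at median depths of 2261, 19266 and 5046 UMIs per cell.

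**Figure D4:**
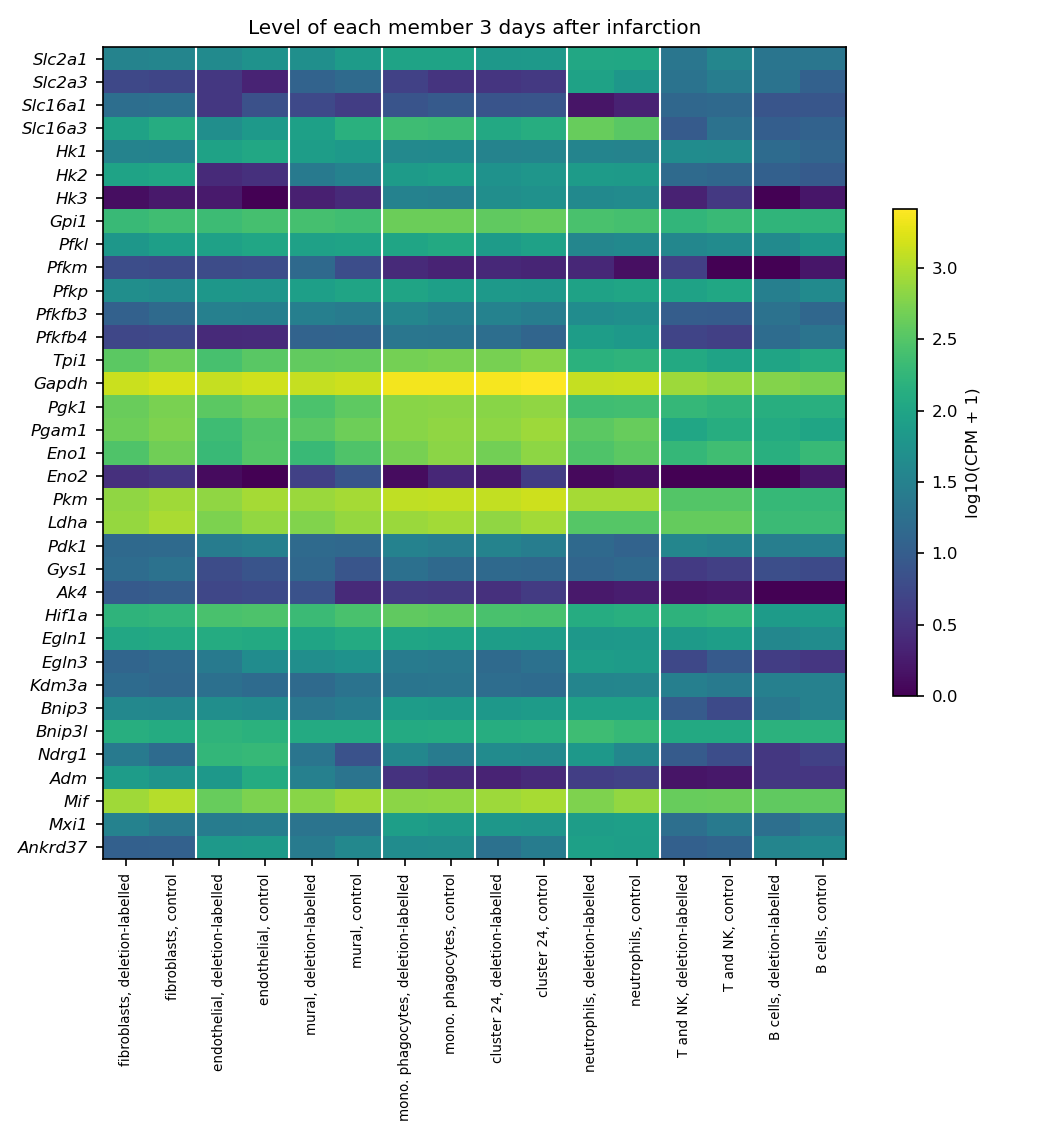
Level of each gene 3 days after infarction as log10(CPM + 1), by cell class (column pairs: deletion-labelled left, control right). Gapdh, Pkm, Ldha and Mif form bright rows in every class, Hk2 is dark in endothelial cells at 1.54 and 1.99 CPM, Ndrg1 is brightest there at 179 and 191 CPM, and Slc16a3 is brightest in neutrophils at 408 and 343 CPM.

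The second question was whether the genes differ with the genotype. In fibroblasts after infarction 1 gene was higher and 1 lower in the deletion-labelled library, and 32 of 34 lay within 1.5-fold, where 10.9% of 12821 genes were higher and 4.19% lower. Ndrg1 (chr15:66929318-66969640) stood at 23.7 CPM in the deletion-labelled and 14.5 CPM in the control library, a 1.63-fold difference (log2 ratio 0.70, 0.53 to 0.88). With each cell weighted equally, by the mean of CPM per cell, its log2 ratio was 0.33 and was no longer called. Eno1 stood at 293 CPM in the deletion-labelled and 459 CPM in the control library (log2 ratio -0.65, -0.69 to -0.61). Every gene of the main line from Tpi1 to Ldha had a negative log2 ratio, between -0.19 for Gapdh and -0.65 for Eno1. These genes were also lower in cluster 24, as given below, so the direction was not particular to fibroblasts. Slc16a3 stood at 89.7 and 128 CPM in fibroblasts, with a ratio of -0.51 (-0.58 to -0.44). By contrast Adm, at 74.3 CPM in the deletion-labelled and 57.3 CPM in the control library, and Mxi1, at 31.0 and 22.8 CPM, had positive ratios of 0.38 and 0.44. Hif1a differed by -0.09 and Slc2a1 by -0.10. The median over the set was -0.13, against 0.04 over all genes.

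The infarction libraries, 1 per genotype, differed in which fibroblasts they held, as given above. Within cluster 26 most of these values lay nearer to 0, and the part of the cell make-up in them was not tested. There Eno1 stood at 338 CPM in the deletion-labelled and 462 CPM in the control library, with a log2 ratio of -0.45 (-0.49 to -0.41), below 1.5-fold, and Slc16a3 at 105 and 129 CPM, with -0.29. Ndrg1 was the exception, at 23.2 and 14.3 CPM with a log2 ratio of 0.69 (0.51 to 0.88). It was the 1 gene called of 34, where 4.85% of 12485 genes were higher and 2.86% lower, and the median of the set was -0.03, against 0.01. Over all fibroblasts, 9 of the 14 S and G2M genes were lower in the deletion-labelled infarction library, with a median log2 ratio of -0.60, and 4 were lower within cluster 26. Neutrophil markers summed to 165 CPM in the deletion-labelled and 257 CPM in the control fibroblasts after infarction, which is 0.281% and 0.341% of their level in neutrophils, with 6 of 8 markers lower. Markers of red cells summed to 226 and 1.06 CPM. The part of these differences in the genotype values was not tested.

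**Figure D5:**
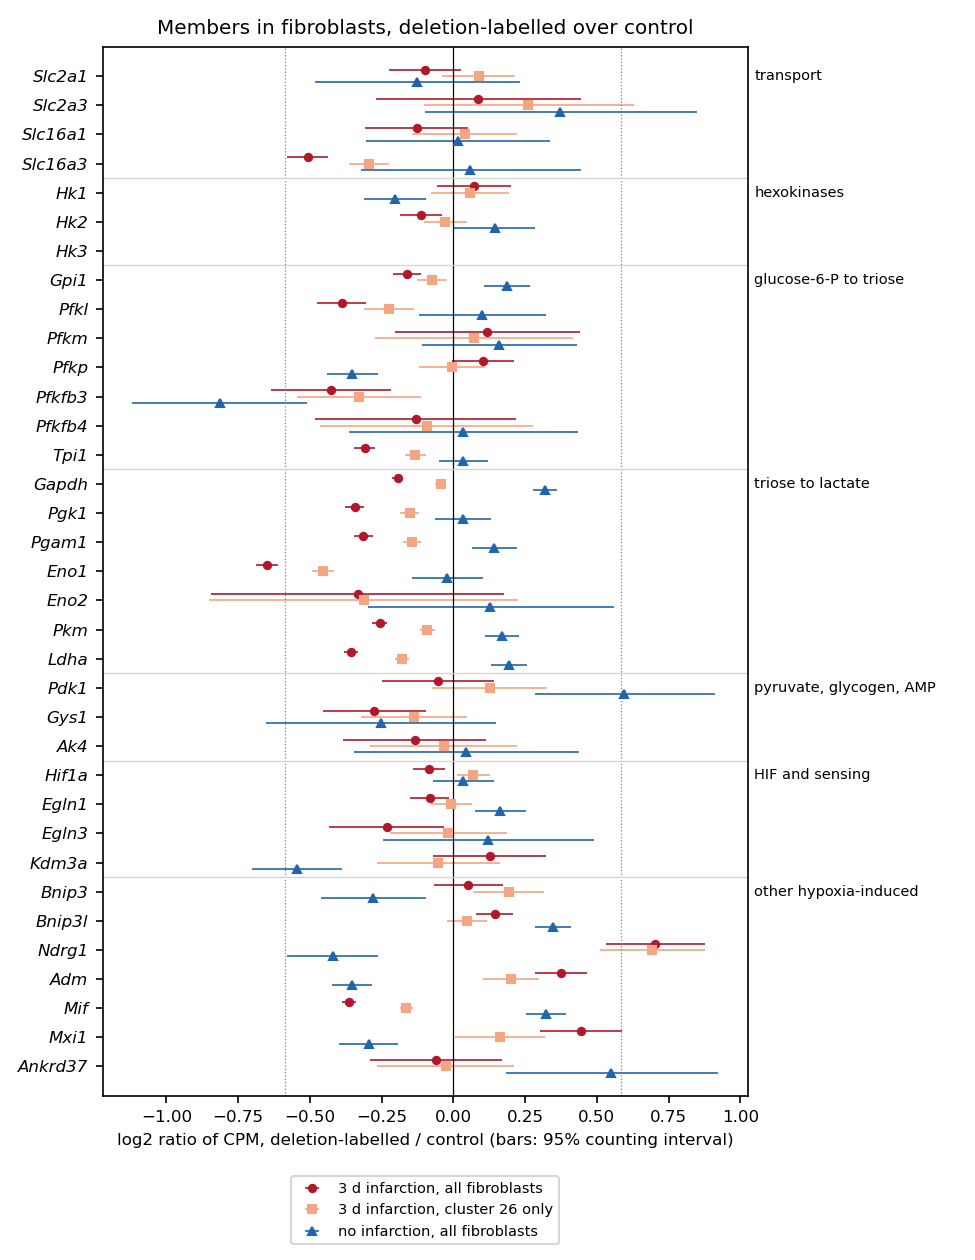
Log2 ratio of CPM in fibroblasts, deletion-labelled over control, for each gene after infarction in all fibroblasts (circles) and in cluster 26 (squares), and without infarction (triangles), with 95% counting intervals and dotted lines at 1.5-fold. Most points lie within the dotted lines, Ndrg1 lies at 0.70 and 0.69 after infarction, and Pfkfb3 lies at -0.81 and Pdk1 at 0.59 without it.

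In other cells of the infarct Ndrg1 was also higher in the deletion-labelled library in 2 of 4 further classes. In neutrophils it stood at 65.0 CPM in the deletion-labelled and 36.6 CPM in the control library (log2 ratio 0.83, 0.62 to 1.04). It was the 1 gene called of 30, where 12.2% of 9643 genes were higher and 3.30% lower. Within cluster 25, which held 2478 of the deletion-labelled and 2962 of the control neutrophils, the levels were 49.9 and 34.4 CPM and the ratio of 0.53 was short of 1.5-fold, with 0 genes of the set called of 30, where 4.54% of 8612 genes were higher and 4.06% lower. Endothelial markers, whose cells hold the most Ndrg1, were higher in the deletion-labelled neutrophils too, at a sum of 2715 CPM in the deletion-labelled and 343 CPM in the control library with 10 of 10 higher, and at 535 and 120 CPM within cluster 25 with 8 of 9 higher. Markers of red cells summed to 95.5 and 35.5 CPM and those of mast cells to 27.7 and 2.30 CPM over all neutrophils, and to 107 and 41.4 CPM and 36.5 and 1.21 CPM within cluster 25. Their part in the Ndrg1 values was not tested. In mural cells Ndrg1 stood at 20.4 and 6.20 CPM (1.72, 0.60 to 3.02), with Adm higher at 29.6 and 19.4 CPM and Slc16a3 lower at 86.6 and 147 CPM, the 3 genes called of 25, where 11.9% of 7433 genes were higher and 4.37% lower. In mural cells the markers of mononuclear phagocytes and of red cells given above were lower in the deletion-labelled library, with 7 of 7 and 4 of 4 counted lower. In mononuclear phagocytes Ndrg1 stood at 36.3 and 25.3 CPM, a log2 ratio of 0.52 that is short of 1.5-fold. There 1 gene was higher and 1 lower of 35, Slc2a3 as possible free RNA and Eno2 at 0.296 and 1.41 CPM, where 4.06% of 11260 genes were higher and 2.28% lower. In endothelial cells, where Ndrg1 is most abundant, it stood at 179 and 191 CPM and did not differ in that direction.

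Endothelial cells after infarction had no gene of the set higher and 3 of 26 lower in the deletion-labelled library, where 10.8% of 9228 genes were higher and 2.20% lower. The 3 were Egln3 at 24.7 CPM in the deletion-labelled and 45.0 CPM in the control library (log2 ratio -0.87, -1.27 to -0.46), Adm at 64.0 and 122 CPM (-0.93, -1.18 to -0.69) and Eno1 at 202 and 311 CPM (-0.63, -0.77 to -0.48). Within cluster 21, the largest that both libraries share, Adm alone of 26 genes was called lower (-0.59), where 7.85% of 8219 genes were higher and 2.12% lower, and Eno1 had a ratio of -0.55. With the mean of CPM per cell 11 genes were lower, and with at most 10% mitochondrial UMIs Adm had a ratio of -0.18. Neutrophil markers summed to 402 CPM in the deletion-labelled and 174 CPM in the control endothelial cells, with 5 of 8 higher, and to 518 and 167 CPM within cluster 21, with 6 of 8 higher. Markers of red cells summed to 67.9 and 1.99 CPM, and to 76.7 and 1.36 CPM within cluster 21. Of 15 dissociation genes, 11 were higher over all endothelial cells, with a median log2 ratio of 0.77, and 8 within cluster 21, with 0.75. The part of these in the genotype values was not tested. Eno1 was thus lower in the deletion-labelled library in fibroblasts and endothelial cells, and its log2 ratio was negative also in mononuclear phagocytes at -0.35, in cluster 24 at -0.46 and in neutrophils at -0.24. In cluster 24 only Eno2 was called, at 0.646 and 3.18 CPM, of 35 genes, where 6.46% of 11080 genes were higher and 2.11% lower. The main line from Tpi1 to Ldha was lower throughout in the deletion-labelled cells of cluster 24. Tpi1 stood there at 516 and 613 CPM, Gapdh at 2311 and 2553 CPM, Pgam1 at 664 and 803 CPM and Ldha at 698 and 849 CPM. In cluster 17 the same genes were lower except Gapdh, at 2212 and 2165 CPM.

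Without infarction fibroblasts again had 1 gene higher and 1 lower of 34 in the deletion-labelled library, where 6.97% of 12619 genes were higher and 5.50% lower. Pdk1 stood at 9.62 CPM in the deletion-labelled and 6.37 CPM in the control library (log2 ratio 0.59, 0.29 to 0.91). Pfkfb3 stood at 5.88 and 10.3 CPM (-0.81, -1.12 to -0.51). Ndrg1 had the opposite sign to that after infarction, at 24.1 CPM in the deletion-labelled and 32.3 CPM in the control library (-0.42), within 1.5-fold. Kdm3a stood at 23.4 and 34.1 CPM (-0.54). In the Lyve1 and Cd163 cluster 9, which was compared only without infarction, Pfkfb3 was again lower, at 39.4 and 78.6 CPM (-0.997, -1.28 to -0.72), with Kdm3a lower and Gys1 higher, of 28 genes, where 4.32% of 9197 genes were higher and 8.73% lower. Endothelial cells had 1 gene of 30 higher, Slc2a3 as possible free RNA, and 0 lower, where 7.82% of 12075 genes were higher and 5.57% lower. Mural cells had 3 higher and 5 lower of 26, where 13.4% of 9048 genes were higher and 12.8% lower, with 193 control cells.

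Genes of the same pathways outside the set were counted in fibroblasts in the same way, and the shares over all genes were those given above, 18.5% higher and 31.9% lower in the deletion-labelled and 23.9% higher and 40.0% lower in the control pair. The counts of these lists were not tested against those shares or against the set. Of other glycolytic and pyruvate genes, 1 of 16 counted rose and 6 fell after infarction in the deletion-labelled pair, and 2 of 15 rose and 5 fell in the control pair. The pyruvate dehydrogenase kinase Pdk3 stood at 19.3 CPM with and 9.07 CPM without infarction in the deletion-labelled and at 22.7 and 8.59 CPM in the control libraries. Its relative Pdk2 fell, to 3.74 against 13.7 CPM in the deletion-labelled and to 2.16 against 11.9 CPM in the control pair, so that the kinases of this family moved in different directions. Of other HIF pathway and hypoxia-induced genes, 14 of 37 rose and 9 fell in the deletion-labelled and 15 of 36 rose and 14 fell in the control pair, with median log2 ratios of 0.06 in the deletion-labelled and -0.05 in the control pair. Angptl4, a regulator of lipoprotein lipase, rose to 154 CPM with against 19.5 CPM without infarction in the deletion-labelled and to 171 against 26.1 CPM in the control pair. Epas1, which encodes HIF2α, fell to 31.2 against 86.2 CPM in the deletion-labelled and to 22.4 against 102 CPM in the control pair, while Hif1a rose. Pink1, a kinase of mitophagy, fell to 29.7 against 102 CPM in the deletion-labelled and to 14.3 against 81.5 CPM in the control pair. Of 14 pentose phosphate and glycogen genes, 2 rose and 2 fell in the deletion-labelled and 3 rose and 4 fell in the control pair. Neither of 2 gluconeogenesis genes counted was called in either pair.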

How the data were processed

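RNA was measured in single cells of 4 libraries. The authors deposited raw UMI counts per gene and barcode, made with Cell Ranger 5.0.1 on mm10 per the submitters' processing notes. Here, barcodes with at least 500 UMIs, 200 genes and at most 20% mitochondrial UMIs were kept, and doublets were removed at an assumed 0.8% per 1000 barcodes by a score from simulated cell pairs. The libraries were clustered together (scanpy 1.11.5, 2000 variable genes, 30 components, 20 neighbours, Leiden resolution 1.0). A cluster was named from marker lists if its markers' share of positive cells exceeded that of other cells by a mean of 0.1, at least 3 markers were found in 20% of its cells and no other class led its top 10 genes. UMIs were summed per class and library, in classes of at least 50 cells. Ratios of CPM carry exact Clopper-Pearson intervals (scipy 1.17.1). Only a sum of 0 was set to a floor of 3 UMIs. A gene under a ratio of 0.1 to another class in both libraries was marked as possible free RNA. The script was tested on simulated data. Positions come from GENCODE M21 on mm10. The naming rule took the 8 highest and the 8 lowest ratios of the set in fibroblasts and 4 each way in other classes, and further genes were chosen after their values were seen. The members and lists were chosen with earlier results of these data known, and the naming limits were set after seeing the data. PCR and droplet capture add error beyond the counting intervals.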

Additional observations from a re-analysis of the deposited data

How the results depend on the processing

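No paired analysis was possible because only 1 library was made per group, and for the same reason no replicate could be left out. Depth and naming limit the classes that were sparse. In the control library without infarction 25 cells were named as mononuclear phagocytes, with cluster 9 outside the class. They were under the minimum of 50 and gave no value. Leaving the 35 genes out of the clustering gave no value for endothelial cells of the control infarction library, and single clusters were compared only where both libraries had 50 cells. Every change given here has a cause that was not tested. Within cluster 1 alone, the deletion-labelled infarction ratios in fibroblasts reversed for Slc16a1 (-0.48), Egln3 (-0.77), Bnip3 (-0.17), Adm (0.65) and Mxi1 (0.014), and 12 genes were higher. In endothelial cells the infarction ratio of Slc2a3 reversed to 0.69 (deletion-labelled) and 1.21 (control) when doublets were kept and to 0.76 with each library clustered alone. The limit of 10% mitochondrial UMIs reversed Gys1 (-0.093) and Adm (-0.63) in the control pair and Adm (-0.90) in the deletion-labelled pair. Adm was also reversed there with the genes left out of the clustering (-0.55) and in cluster 7 (-1.78). In mural cells without infarction the genotype ratio of Ndrg1 reversed to -0.10 when doublets were kept and to -0.40 with each library clustered alone, and that of Pfkm in cluster 8 (-0.020). Some counts of called genes moved by over 1.5 times. In fibroblasts, 2 genes were higher without infarction in the deletion-labelled library under median-of-ratios scaling, the mean of CPM per cell and within cluster 0. After infarction 3 were lower by the mean of CPM per cell, 2 with a minimum of 10 or 1 UMI and 0 within cluster 26, and in the deletion-labelled infarction comparison 3 were lower under median-of-ratios scaling and 5 by the mean of CPM per cell. In the endothelial genotype comparison without infarction, 2 were higher by the mean of CPM per cell, and 1, 3 and 1 were lower with a minimum of 10 UMIs, of 1 UMI and with the looser naming. After infarction 1 was higher by the mean of CPM per cell or with either minimum, 2 without doublet removal or at 10% mitochondrial UMIs and 3 with each library clustered alone, while 11 were lower by the mean of CPM per cell and 1 within cluster 21. In the endothelial infarction comparisons, 11 (10% mitochondrial UMIs) and 3 (each library clustered alone) were lower in the control pair and 3 (genes left out of the clustering) in the deletion-labelled pair. In mononuclear phagocytes 0 were higher under median-of-ratios scaling, at 10% mitochondrial UMIs, with each library clustered alone, with the genes left out, within cluster 17 and with the looser naming, and 2 by the mean of CPM per cell or without doublet removal, while 3 (each library clustered alone) and 0 (cluster 17) were lower. In neutrophils 2 were higher by the mean of CPM per cell, with doublets kept, with either minimum and with each library clustered alone, and 0 within cluster 25, while 2 were lower with a minimum of 1 UMI. In mural cells without infarction 8 were lower with a minimum of 1 UMI and 1 was higher in cluster 8. Of 80 isozyme shares recomputed under 4 alternatives, 77 stayed within their counting intervals and 3 moved, by at most 4.27 percentage points; these alternatives and the looser naming were added after seeing the data.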

Other observations

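Cells of the endothelial clusters without infarction differed among themselves in some of these genes. Adm was highest in cluster 4, a cluster with endothelial markers that the rule left unnamed, at 139.7 CPM in the deletion-labelled and 199.6 CPM in the control library, against 23.8 and 28.6 CPM in the named endothelial cells. Ndrg1 stood at 194 and 195 CPM in cluster 5 and at 150 and 136 CPM in cluster 4. Egln3 was highest in mural cells of both libraries without infarction, at 11.5 CPM in the deletion-labelled and 25.7 CPM in the control library.

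In enolase UMIs of mural cells, Eno2 made 1.71% (0.691 to 3.49) after infarction and 8.84% (5.62 to 13.1) without it in the deletion-labelled libraries, and 2.33% (1.07 to 4.37) and 21.4% (11.6 to 34.4) in the control libraries. Ldhb made 21.9% and 52.3% of lactate dehydrogenase UMIs in mural cells of the deletion-labelled libraries with and without infarction and 22.3% and 46.0% in the control libraries. In neutrophils of the deletion-labelled libraries Hk3 made 27.6% (25.2 to 30.2) of hexokinase UMIs after infarction and 56.7% (44.0 to 68.8) without it, and Hk2 made 49.5% and 23.9%.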
